A study of Homo sapiens with 2 samples.

Results

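The genes described are p53 targets and CDK inhibitors, 34 genes that act where p53 or an inhibitor protein halts the cell cycle, repairs DNA or starts cell death. They were chosen by name. Each took the value of its brightest probe set among those that the array annotation assigns to that gene symbol alone, which gave values for 31 of the 34 among 18377 genes in all, every one from a single probe set. CDKN2C, BTG2 and FDXR matched no probe set in the annotation used and were not analysed here. A gene counted as measured above dim signals when the brighter of its 2 arrays reached 4.01 on the log2 scale, the median over all probe sets. This filter was passed by 29 members and by 11469 genes, while PLK2 and SPATA18 lay below it.

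The study asked which transcripts HIF-2α changes in LP-1 cells. LP-1 is a cell line from human multiple myeloma, a cancer of plasma cells. The vector control is LP-1 infected with the empty vector pRUF-IRES-GFP, and the HIF2A line is LP-1 infected with the same vector carrying the full-length human HIF-2α cDNA. Both lines thus carry the vector, and the added HIF-2α is made from it and not from the cell's own gene. Oxygen level, and whether a line is a pool or 1 clone, are not stated in the labels. Each line has 1 array, so no difference below has a replicate check, a standard error or a p-value. RNA came from whole cultures, so fewer cells with a transcript and less of it per cell cannot be told apart.

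The labels were first checked on EPAS1, the gene of HIF-2α. Its log2 signal was 3.70 in the vector control against 9.05 with HIF-2α, which makes a difference of 5.35. All differences below are HIF2A minus vector control on the log2 scale. Of 9 plasma cell markers, 8 exceeded the 95th percentile of 339 olfactory receptor genes, taken as background at 3.58, in both arrays. The exception was CD27, with 3.53 and 3.62. The same level was exceeded in both arrays by 4 of 5 B cell, 2 of 6 T and NK cell, 2 of 6 myeloid and 3 of 6 stromal markers. This count thus does not set plasma cell markers apart from B cell markers. Their signals differed more, with a plasma cell median of 8.47 in the vector control and 8.24 in the HIF2A array. Markers of the other 4 lists ranged up to 5.03 in the vector control and 4.91 in the HIF2A array, with a median per list of at most 3.96 and 4.07. Where a gene past the filter had more than 1 probe set with its own values, as 346 genes did, the difference from the brightest and the next probe set lay a median of 0.15 apart and a 90th percentile of 0.73 apart. No member has such a second reading.

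p53 is a transcription factor that is held low by MDM2, which marks it for degradation, and by MDM4, which blocks its activity. After DNA damage or other stress it accumulates and switches on genes for arrest, repair and death, MDM2 among them, which closes a feedback loop. CDK inhibitors bind cyclin-dependent kinases or their cyclins and so keep RB proteins active and the cell in G1. The Cip/Kip proteins act on many cyclin-CDK pairs, and the INK4 proteins on CDK4 and CDK6. In myeloma, D-type cyclins and the loss of such inhibitors are known themes, and LP-1 is catalogued as a line with mutated p53. The gene of p53 itself was not analysed here.

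Members went both ways in the HIF2A array, with no common direction. Among the 29 that passed the filter there were 15 higher and 14 lower values, with a median difference of 0.03, the same as the 0.03 over all 11469 genes. CCNG1 and APAF1 were at least 1.5-fold higher, a distance of 0.58, and PHLDA3, MDM2 and FAS at least 1.5-fold lower. These are 2 of 29 and 3 of 29, where 5.67% of all genes past the filter were as far apart upwards and 4.76% downwards. None of the 29 was 2-fold apart, against 0.706% of genes upwards and 0.732% downwards, although CCNG1 came close. Over all 31 measured members the counts were again 2 and 3, with 3.81% and 3.37% over all 18377 genes. The spread among the members was also like that of other genes, with a robust SD, scaled from the median absolute deviation, of 0.31 against 0.34. The median changed sign with the processing, from 0.03 to -0.0051 after quantile normalization and -0.0089 after loess centring, so the list has no direction of its own to report.

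**Figure D1:**
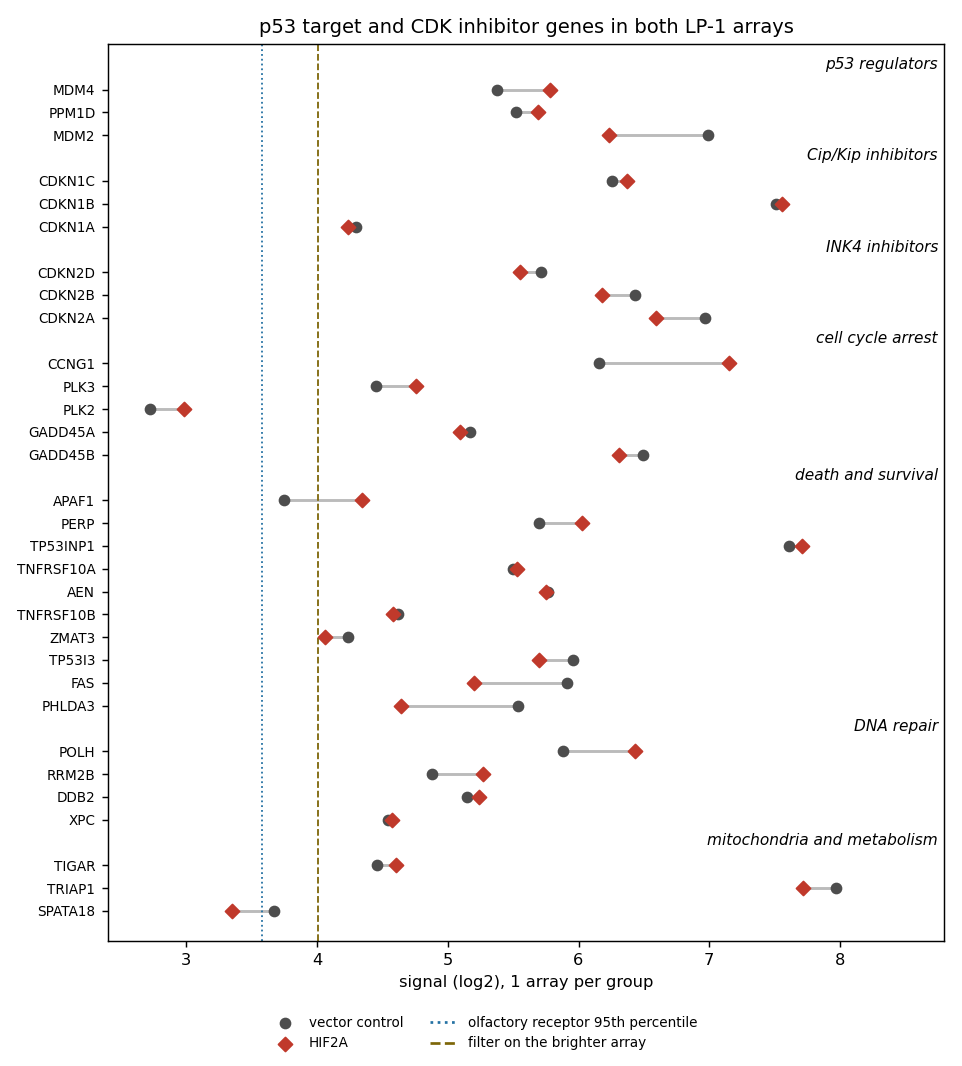
Log2 signals of the 31 measured members in the vector control (grey circles) and the HIF2A array (red diamonds), grouped by role and, within a role, ordered by difference; each point is 1 array. The dotted line is the olfactory receptor 95th percentile of 3.58 and the dashed line the filter at 4.01. Most pairs lie close together, and the longest bars belong to CCNG1 on the higher side and to PHLDA3, MDM2 and FAS on the lower.

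Sequences before the transcript start are given for the members on which the comparison turns, so that the letters can be read beside the values. RefSeq windows of 250 bases before a start, in GRCh38.p14, were at hand for 27 of the 34 members, and not for PHLDA3. The p53 response element consists of a pair of half-sites, each a 10-base consensus that reads alike on both strands. Windows were searched for 2 adjacent half-sites that keep the central C and G of each and have at most 2 mismatches in the 20 bases. This was found before 3 of the 27 members, MDM2, FAS and AEN, and before 84 of 27305 genes with a window, or 0.308%. Pairs outside these windows, or with bases between the half-sites, were not searched for. A member without a match here may thus still have a p53 response element. The members were listed as known p53 targets, so the match is a description of the list and not independent evidence. In the stretches below, which all lie on the plus strand, capitals mark the paired half-sites. For MDM2, FAS and AEN the transcript start used lies inside the gene's span in RefSeq, downstream of its first base.
MDM2, chr12:68808868-68808997, half-sites 94 to 75 bases before the start: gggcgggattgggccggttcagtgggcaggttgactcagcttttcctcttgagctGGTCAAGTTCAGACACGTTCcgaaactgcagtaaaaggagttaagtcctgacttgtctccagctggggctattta
FAS, chr10:88991254-88991383, half-sites 122 to 103 bases before the start: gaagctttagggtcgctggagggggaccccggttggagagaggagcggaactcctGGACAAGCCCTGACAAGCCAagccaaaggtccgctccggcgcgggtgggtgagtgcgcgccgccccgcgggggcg
AEN, chr15:88621251-88621339, half-sites 34 to 15 bases before the start: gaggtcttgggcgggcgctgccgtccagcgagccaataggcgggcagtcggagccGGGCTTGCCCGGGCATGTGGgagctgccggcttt

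MDM2 and FAS, which carry these letters, were both lower in the HIF2A array, while AEN, which also carries them, differed by -0.02. The core letters of the hypoxia response element, ACGTG or GCGTG on either strand, were common everywhere and so do not single out a member. They were found at 17 of the 27 members, or 63.0%, and at 47.4% of all genes with a window. Per window the shares were 56.4% of 39 and 43.2% of 35116. The higher share of the members was not tested. The windows of MDM2 and FAS that hold the paired half-sites also hold these core letters, and that of AEN does not. Members of either direction have the core letters, such as CCNG1 at 0.99, APAF1 at 0.59, CDKN1A at -0.06 and CDKN2A at -0.38. Whether the letters bear on any of the values was not tested. The core letters are marked only for CCNG1, the member with the largest difference, in capitals 177 to 173 bases before its first start.
CCNG1, chr5:163437339-163437453, plus strand: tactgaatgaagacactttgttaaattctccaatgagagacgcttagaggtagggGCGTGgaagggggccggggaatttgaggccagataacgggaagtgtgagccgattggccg

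The regulators of p53 differed in opposite directions. MDM2, the ubiquitin ligase for p53 and itself a p53 target, had 6.99 in the vector control and 6.23 in the HIF2A array. It was 1.69-fold lower, a difference of -0.76, and 2.06% of the genes past the filter were as low or lower. MDM4, its partner that blocks p53 without degrading it, had 5.38 and 5.78, a difference of 0.40. PPM1D, a phosphatase that switches p53 signalling off again, had 5.52 and 5.69. Both genes thus leaned higher while MDM2 was lower, but neither reached 1.5-fold. Neighbours leaned the way of both MDM genes, where 46.1% of all genes past the filter were lower and 52.6% higher. The 20 nearest measured genes around MDM2 had a median of -0.19, with 14 of 20 lower, and those around MDM4 one of 0.20, with 15 of 20 higher. Their part in the result was not tested, and after subtracting the neighbours MDM2 stood at -0.57, just short of 1.5-fold, MDM4 at 0.20 and PPM1D at -0.015, with its sign turned.

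The Cip/Kip inhibitors were the least different of the roles. CDKN1A, which encodes p21, the main arrest effector of p53, had 4.30 in the vector control and 4.24 in the HIF2A array. CDKN1B, the gene of p27, had 7.51 and 7.56. CDKN1C, the imprinted gene of p57, had 6.26 and 6.37. The 3 differences ran from -0.06 to 0.11, all less than 25% apart, as were 7451 of the 11469 genes.

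The INK4 inhibitors were all somewhat lower. CDKN2A, whose locus encodes both the CDK inhibitor p16 and the MDM2 antagonist ARF, had 6.97 and 6.59, a difference of -0.38. CDKN2B, the neighbouring gene of p15, had 6.43 and 6.18, a difference of -0.25. CDKN2D, the gene of p19, had 5.71 and 5.55, a difference of -0.16. Their direction was the same under all 8 alternatives tried for single genes, but only some of these could have turned it. Those were quantile normalization, loess centring and subtracted neighbours. Median centring moves all genes by the same amount, too small here to turn them, as the medians were 4.02 and 4.0. It gave -0.36, -0.23 and -0.14. The probe set rules and the floor left the 3 values unchanged, and a constant added to linear signals keeps the sign. All 3 genes stayed within 1.5-fold, and 46.1% of all genes past the filter were lower. The probe set read for CDKN2A was not resolved into its p16 and ARF transcripts here. The genes around CDKN2A and CDKN2B had medians of 0.02 and 0.

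Among the arrest genes CCNG1 stood apart. CCNG1 encodes cyclin G1, a p53 target that recruits the phosphatase PP2A to MDM2. Its signal was 6.16 in the vector control and 7.15 in the HIF2A array, 1.99-fold higher, a difference of 0.99 that 0.732% of the genes past the filter reached or exceeded. Of its 20 nearest measured genes on chromosome 5, 10 were higher and their median was -0.02, so CCNG1 was as far apart after subtracting them, at 1.01. It was the member with the largest difference in every setting tried, and the only member still 1.5-fold apart, at 0.75, when 32 was added to each linear signal.

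The other arrest genes differed little. GADD45A and GADD45B encode small stress proteins that bind PCNA and stress kinases. GADD45A had 5.17 and 5.09, and GADD45B had 6.49 and 6.31. GADD45A lies on chromosome 1 among genes of which only 3 of 20 were lower and whose median was 0.375, so its difference of -0.08 came to -0.455 after subtracting them. PLK3, a stress-activated polo-like kinase gene, had 4.45 and 4.76, a difference of 0.31. Its relative PLK2 had 2.72 and 2.98, below the olfactory receptor level in both arrays, so no fold is given. All 20 genes nearest to PLK2 were higher, with a median of 0.325. Over all genes past the filter, 52.6% were higher and 46.1% lower. Whether the neighbours of GADD45A and PLK2 moved together for a shared reason was not tested.

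Death and survival genes held PHLDA3, the lowest member, with FAS, and also a higher one, APAF1. PHLDA3 encodes a p53-induced protein that keeps the kinase AKT from the membrane. It had 5.54 in the vector control and 4.64 in the HIF2A array, 1.87-fold lower, and its difference was -0.90, with 1.19% of genes past the filter as low. FAS, the gene of the death receptor for FAS ligand, had 5.91 and 5.20, 1.64-fold lower, with 2.62% of genes as low as its -0.71. The genes around FAS had a median of 0.11, with a sign opposite to that of FAS itself, and those around PHLDA3 one of -0.115. After subtracting neighbours FAS stood at -0.82 and PHLDA3 at -0.79. Adding 32 on the linear scale brought PHLDA3 to -0.46, FAS to -0.42 and MDM2 to -0.57, all inside 1.5-fold.

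The other death receptors did not follow FAS in size. TNFRSF10A and TNFRSF10B encode the TRAIL receptors DR4 and DR5. TNFRSF10A had 5.50 and 5.53, and TNFRSF10B had 4.62 and 4.58. These are differences of 0.03 and -0.04 against the -0.71 of FAS.

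APAF1, the scaffold of the apoptosome that activates caspase-9, had 3.75 and 4.34, 1.51-fold higher. Its vector control signal was just above the olfactory receptor level, it passed the filter through the HIF2A array alone, and 5.67% of genes were as high as its 0.59. With 32 added its difference was 0.20. PERP, a membrane and desmosome protein gene tied to p53-dependent death, had 5.70 and 6.03, a difference of 0.33. The nuclease gene AEN had 5.77 and 5.75. TP53INP1, which encodes a p53 cofactor that also acts in autophagy, had 7.61 and 7.71. TP53I3, an oxidoreductase gene, had 5.96 and 5.70, and the RNA-binding gene ZMAT3 had 4.24 and 4.06. Of the 10 death and survival genes, 4 were higher and 6 lower, with a median of -0.03.

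**Figure D2:**
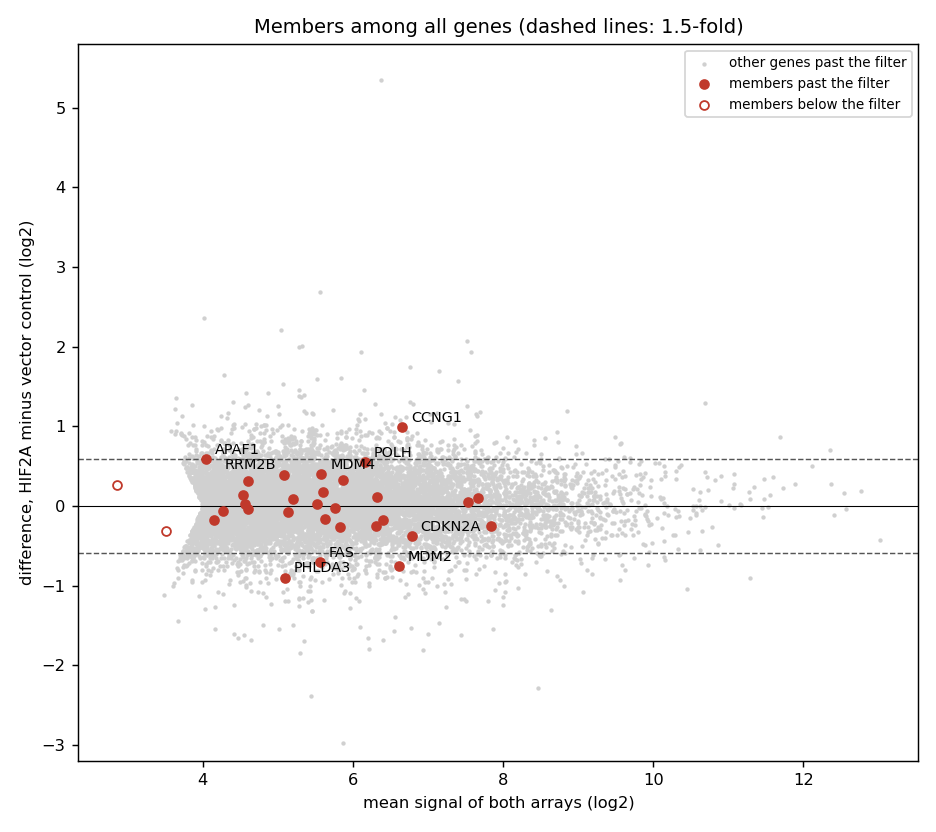
Difference (HIF2A minus vector control, log2) against the mean log2 signal of both arrays for 11469 genes past the filter (grey) and the members (red; open circles for PLK2 and SPATA18 below the filter). The dashed lines mark 1.5-fold; CCNG1 and APAF1 lie at or above the upper line, PHLDA3, MDM2 and FAS below the lower one, and the other members within the bulk of the genes, while the topmost grey point at 5.35 is EPAS1.

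The 4 DNA repair genes had differences above 0, as did 52.6% of all genes past the filter. Only POLH and RRM2B were more than 25% higher, a distance that 19.6% of those genes reached upwards and 15.4% downwards. POLH, the gene of the translesion polymerase eta that copies past ultraviolet damage, had 5.88 and 6.43. Its difference of 0.55, or 1.46-fold, was the nearest to the 1.5-fold line from inside, as the 0.59 of APAF1 was from outside. RRM2B, a ribonucleotide reductase subunit gene that supplies nucleotides for repair, had 4.88 and 5.27, a difference of 0.39. The genes of the damage sensors of nucleotide excision repair were nearly level, with XPC at 4.54 and 4.57 and DDB2 at 5.15 and 5.24. DDB2 lies among neighbours with a median of 0.325 and XPC among neighbours with one of 0.13. After subtracting these, XPC stood at -0.10 and DDB2 at -0.24, so their direction is not settled, while POLH stood at 0.41 and RRM2B at 0.52.

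The last role covers mitochondria and metabolism. TIGAR, which encodes a phosphatase that slows glycolysis by lowering fructose-2,6-bisphosphate, had 4.46 and 4.60. TRIAP1, a lipid-transfer protein gene of the mitochondrial intermembrane space, had 7.97 and 7.72. SPATA18, a mitochondrial quality-control gene, had 3.67 and 3.35, below the filter in both arrays and below the olfactory receptor level in the HIF2A array. TIGAR and TRIAP1 were less than 25% apart, and no fold is given for SPATA18.

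**Figure D3:**
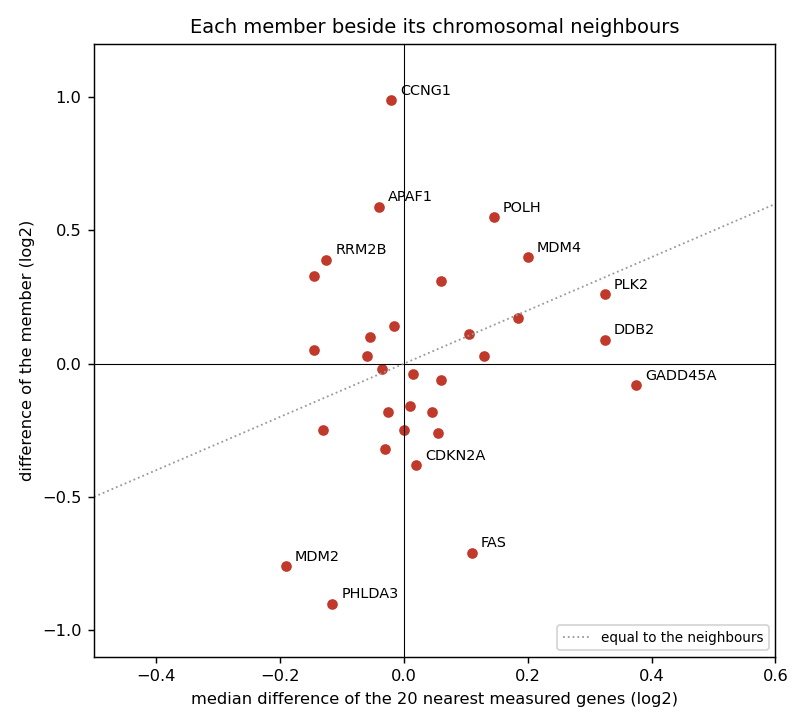
Difference of each of the 31 measured members (vertical, log2) against the median difference of its 20 nearest measured genes on the chromosome (horizontal, log2); the dotted line marks equality. CCNG1, APAF1, FAS and PHLDA3 lie far from the line with neighbours between -0.115 and 0.11, MDM2 has neighbours at -0.19, and PLK2, DDB2 and GADD45A lie among neighbours above 0.3.

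Other genes of the pathway were read from 3 lists. Of 15 genes of the p53 family and its activators, 13 were measured and past the filter, 8 of them higher and 5 lower, with a median of 0.05. ATM, the kinase that signals DNA breaks to p53, was higher at 4.92 against 4.29, a difference of 0.63, among neighbours with a median of 0.36. RPL11, a ribosomal protein that restrains MDM2, had a difference of 0.60 and TP53BP1 one of 0.52. RPL5, which acts with RPL11 on MDM2, differed by -0.11 on the brightest of its 3 probe sets. TP73 and the checkpoint kinase gene CHEK2 had -0.34 and -0.16. Thus 2 of 13 were at least 1.5-fold higher and 0 lower, beside the 5.67% and 4.76% above.

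Of 25 other p53 targets, 24 were measured and 19 passed the filter, 13 higher and 6 lower, with a median of 0.11. Over all genes past the filter, 52.6% were higher and 46.1% lower. PMAIP1, the gene of the death-promoting BH3 protein NOXA, had 4.08 against 5.07, a difference of -0.99. BTG1, an antiproliferative gene, had 7.34 against 6.72, a difference of 0.62. These were the only ones of the 19 at least 1.5-fold apart, 1 higher and 1 lower. Over all genes past the filter the shares were 5.67% and 4.76%. The helicase gene ASCC3 and the PIDDosome gene PIDD1 were higher by 0.54 and 0.49. GDF15, a stress cytokine gene, had a difference of -0.56, with its HIF2A signal of 3.49 below the olfactory receptor level. EPHA2, a receptor kinase gene, had -0.15.

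Of 25 CDK, cyclin and RB genes, all past the filter, 12 were higher and 13 lower, with a median of -0.05. CCNE2, a cyclin of the G1 to S transition, was the only one at least 1.5-fold apart, at 4.97 against 5.89, a difference of -0.92. That is 0 higher and 1 lower of 25, beside 5.67% and 4.76% of all genes past the filter. The S phase cyclin gene CCNA2 and the RB relative RBL2 had -0.57 and -0.52. The genes around CCNA2 had a median of -0.30, with 19 of 20 lower, and those around RBL2 one of -0.14. Of all genes past the filter, 46.1% were lower. After subtracting neighbours CCNA2 stood at -0.27 and RBL2 at -0.38. The D-type cyclin genes, whose kinases the INK4 proteins inhibit, had differences above 0, as did 52.6% of all genes past the filter. CCND3 had 0.52, CCND2 had 0.41 and CCND1 had 0.24, all within 1.5-fold. Of their kinases CDK4 had -0.36 and CDK6 had 0.16, and RB1, the substrate, had -0.22. E2F7, a repressor of the E2F family, was higher by 0.56.

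**Figure D4:**
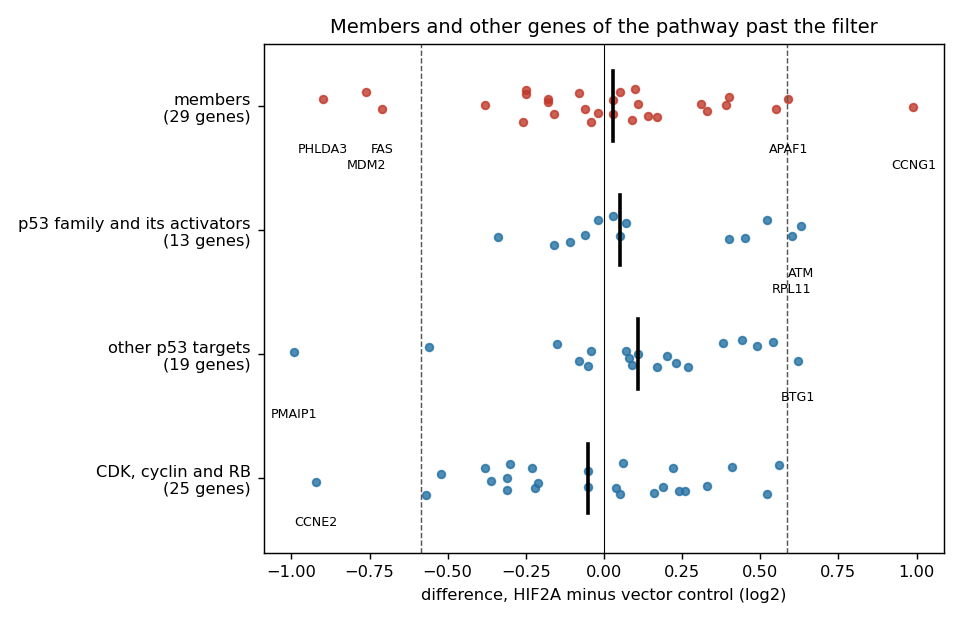
Differences (HIF2A minus vector control, log2) of the 29 members past the filter (red) and of 3 further lists (blue), 1 point per gene, with vertical position within a row random; thick bars are medians, dashed lines mark 1.5-fold and genes beyond them are named. All 4 medians lie close to 0, from -0.05 to 0.11.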

How the data were processed

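Total RNA of 2 LP-1 lines was measured on 1 whole-transcript Affymetrix array each. The deposited values are log2 signals of 28869 probe sets, which the authors made in Affymetrix Expression Console, a tool named in the submitters' processing notes. Its algorithm and version, and any background correction or centring, were not given in the sources used here, and median signals were 4.02 and 4.0. With 1 array per group the number of arrays limits the precision, and no test was made.

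Of the probe sets, 19310 carry a single gene symbol. Members are named whatever their values, and up to 3 genes in each direction of each further list, with CDK4, CDK6, CCND1, CCND2, CCND3 and RB1. Members and lists were chosen with earlier results of these data known. Neighbours are the 10 measured genes past the filter on each side, ordered by the RefSeq gene table of GRCh38.p14.

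Alternatives were quantile normalization, median and loess centring (span 0.3, 3 passes), 32 added to linear signals, a floor at the olfactory receptor level, other probe set and filter rules, subtracted neighbours, and thresholds of 25% and 2-fold. The code was tested on simulated data. Python 3.11.15, numpy 2.4.6, pandas 2.3.3 and statsmodels 0.14.6 were used.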

Additional observations from a re-analysis of the deposited data

How the results depend on the processing

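No paired analysis was possible because each group has 1 array, and for the same reason no replicate could be left out. Of 248 values of single members under other settings, 245 moved by less than the robust SD of all differences, 0.34; the others were GADD45A at -0.455 with neighbours subtracted, and APAF1 at 0.20 and PHLDA3 at -0.46 with 32 added. The probe set settings could not move members, which have 1 probe set each. Median centring shifted every member by the same amount, far below 0.34, as the medians were 4.02 and 4.0. The floor could move only PLK2 and SPATA18, the members with a signal below it. A value counted as moving less than 0.34 could still cross a line. With 32 added, FAS at -0.42 and MDM2 at -0.57 were no longer 1.5-fold apart. With neighbours subtracted, PPM1D changed sign, to -0.015, as did DDB2 at -0.235, XPC at -0.10, PLK2 at -0.065 and AEN at 0.015. MDM2 at -0.57 was inside 1.5-fold there too, which left 2 members lower. TNFRSF10A changed sign after quantile normalization, at -0.0051, and loess centring, at -0.0089, and PLK2 with the floor, at -0.001. Members at least as far apart as the threshold numbered 0 higher and 0 lower at 2-fold, and 6 higher and 4 lower of 29 at 25% apart, beside 19.6% and 15.4% of all genes past the filter. With 32 added, which shrinks dim genes by construction, 1 member was higher and 0 lower, and of the further lists 0 p53 activators were higher, 0 other targets higher or lower, and 0 CDK, cyclin and RB genes lower. With the filter at the 75th percentile, 1 member and 1 p53 activator were higher and 0 other targets lower, and the arrest and repair groups, down to 2 and 1 genes, had medians of 0.405 and 0.55. With neighbours subtracted the member median was -0.055, 1 p53 activator was higher, other targets gave 0 higher and 2 lower, and 2 CDK, cyclin and RB genes were lower. Loess centring left 1 p53 activator higher and 2 CDK, cyclin and RB genes lower.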

Other observations

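The genes beside the members that were at least 1.5-fold apart, chosen after the members' values were seen, give the local setting of each. Around MDM2 on chromosome 12, the 3 nearest genes past the filter on one side, SNORA70G, NUP107 and SLC35E3, had differences of -0.41, -0.19 and -0.26. On the other side the chromatin reader gene YEATS4 was lower by a difference of -0.83, at 7.48 against 8.31, CPSF6 had -0.19 and the chaperonin gene CCT2 had 0.05. Thus 5 of the 6 genes nearest to MDM2 were lower, beside 46.1% of all genes past the filter, and YEATS4 more so than MDM2. Beside PHLDA3 on chromosome 1, CSRP1, NAV1 and IPO9 on one side had -0.66, -0.52 and 0.09, and KIF21B, TMEM9 and TNNI1 on the other had 0.23, 0.03 and 0.

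Beside FAS on chromosome 10, the oxidase gene RNLS had -0.62, the smooth muscle actin gene ACTA2, next to FAS, had -0.35 and ATAD1, farther out on the same side, had 0.25. LIPA, PANK1 and KIF20B on the other side had 0, 0.09 and 0.06. Beside CCNG1 on chromosome 5, HMMR was higher by 0.30 and MAT2B had -0.18, with the other 4 between -0.08 and 0.36. Beside APAF1 on chromosome 12, SCYL2 and NEDD1 were higher by 0.77 and 0.70, BLTP3B had 0.07, and SLC25A3, TMPO and ACTR6 had -0.08, -0.11 and -0.24. Whether nearby genes moved together with these members for a shared reason was not tested.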
